A study of Rattus norvegicus with 16 samples.

Results

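Among 8 right ventricular libraries from sham-operated female rats, 3 held far more transcripts of fat, mesothelium and smooth muscle than the other 5. The libraries were split by Adipoq, which encodes adiponectin, a hormone made by fat cells: the 3 with an Adipoq level of at least 5 in counts per 1000000 counts of the library (CPM by library total) form the high set, and the other 5 the low set. The series holds 16 libraries, 4 in each of 4 groups, and its 8 banded libraries serve here as a reference. All rats were Sprague Dawley females of 20 to 21 weeks. WT SHAM rats were wild-type and KO SHAM rats were ERalpha -/-, with the gene of estrogen receptor alpha (Esr1) mutated, and neither was banded. WT PAB and KO PAB rats, of the same 2 genotypes, carried a pulmonary artery band for 10 weeks, which narrows the vessel and loads the right ventricle. RNA came from 10 mg of right ventricle. The labels do not say where in the ventricle the piece was taken or whether the libraries of a group come from separate animals, so p-values measure only the spread between these samples. The high set was WT SHAM 2, WT SHAM 3 and KO SHAM 4, where the number is the replicate, and the low set was WT SHAM 1, WT SHAM 4, KO SHAM 1, KO SHAM 2 and KO SHAM 3. Values of the sets are given below in these orders.

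The heart wall holds more than muscle. Its outer face is covered by mesothelium, a sheet of epithelium-like cells that expresses mesothelin (Msln), and fat lies beneath it along the grooves between the chambers and around the great vessels. The pulmonary trunk and the coronary arteries contain contractile smooth muscle, whose myosin heavy chain is Myh11, and elastic fibres, while the valves hold a matrix with features of cartilage.

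Adipoq had 1559, 785 and 404 counts in the high set and 1, 0, 0, 1 and 1 counts in the low set. By library total, the lowest library of the high set stood at 13.2 CPM and the highest of the low set at 0.0451 CPM, so no sham library lay near the threshold. Because the Adipoq of these libraries chose the sets, every comparison of the high with the low set is a description without a test. Pooled over libraries, the high set held 1189 times the Adipoq of the low set, with a 95% interval of 406 to 5769 for counting error only. Of the banded libraries, KO PAB 3 had 142 counts of Adipoq and the other 7 had 0 to 11.

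The other 2 marker genes separated the same libraries. These and all further levels are CPM after scaling by the trimmed mean of M values (TMM CPM). Msln stood at 43.9, 20.5 and 42.5 TMM CPM in the high set and at 7.84, 0.164, 1.80, 0.806 and 7.90 in the low set. The sets did not overlap, though WT SHAM 1 and KO SHAM 3 lay above the other low libraries. Myh11 stood at 1031, 291 and 503 TMM CPM in the high set and at 34.8, 107, 60.8, 75.2 and 83.2 in the low set. WT SHAM 2 had the most Myh11 and WT SHAM 3 the least of the high set, and again the sets did not overlap.

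**Figure D1:**
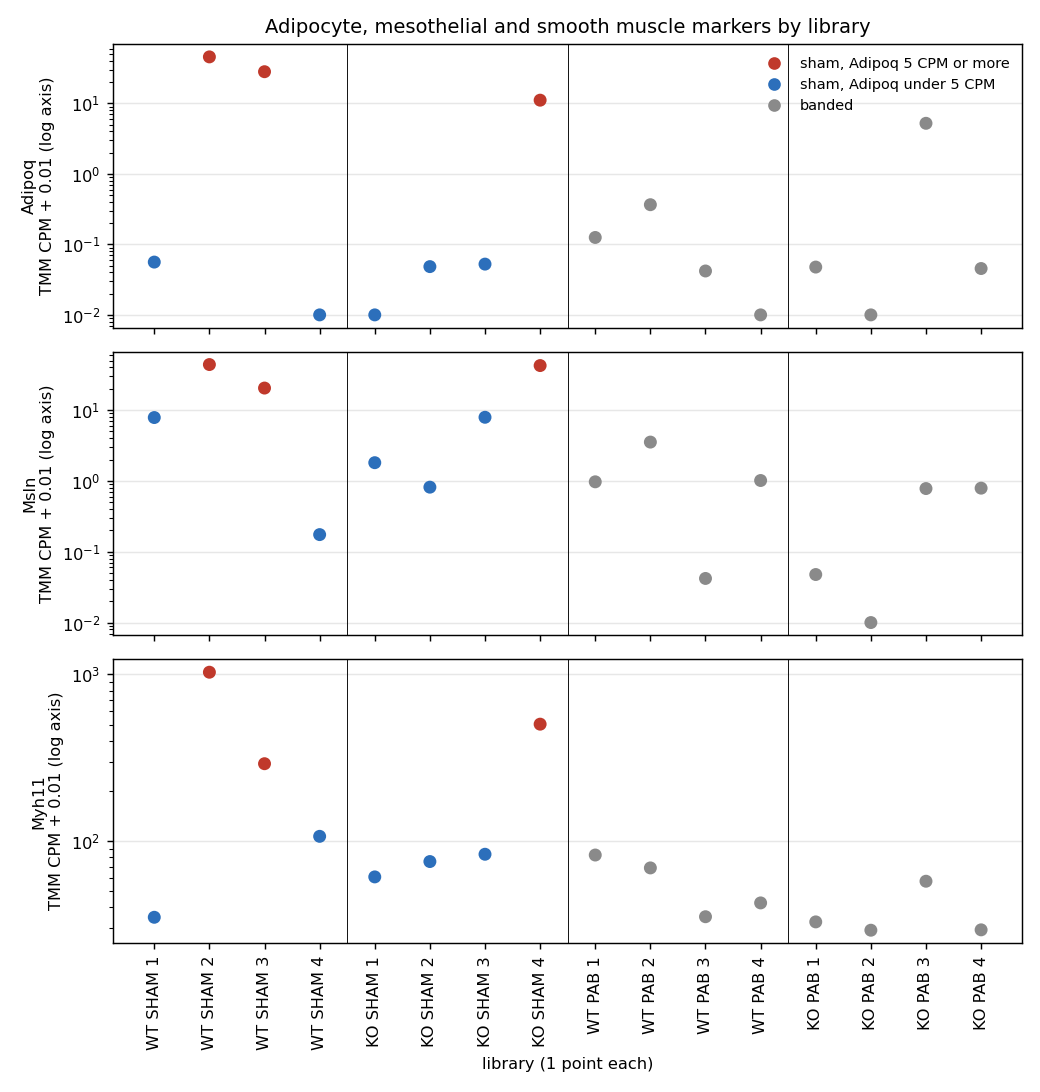
Levels of Adipoq, Msln and Myh11 in each of the 16 libraries, as TMM CPM plus 0.01 on log axes; red points are the 3 high sham libraries, blue points the 5 low sham libraries and grey points the 8 banded ones. For all 3 genes the red points lie above every blue point, and the highest grey point for Adipoq is KO PAB 3.

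The smooth muscle genes are textbook targets of serum response factor, which binds the CArG box (CC, then 6 letters that are A or T, then GG, read alike on both strands), so their promoters were searched for it. Promoters came from RefSeq, build GRCr8, and cover 250 bases before to 50 bases after the gene start. Of the 14 smooth muscle genes higher in the high set, 10 had a promoter in this table; Myh11, Tagln, Myl9 and Lmod1 did not. The 2 most abundant of the 10 are shown, Acta2 (smooth muscle actin), at chr1:241172454-241172753 on the minus strand, and Cald1 (caldesmon, which regulates actin and myosin), at chr4:64233006-64233305 on the plus strand. Capitals mark stretches that match the box except for 1 of the 6 inner letters, which is G or C, a looser form added after the exact search was seen.
Acta2: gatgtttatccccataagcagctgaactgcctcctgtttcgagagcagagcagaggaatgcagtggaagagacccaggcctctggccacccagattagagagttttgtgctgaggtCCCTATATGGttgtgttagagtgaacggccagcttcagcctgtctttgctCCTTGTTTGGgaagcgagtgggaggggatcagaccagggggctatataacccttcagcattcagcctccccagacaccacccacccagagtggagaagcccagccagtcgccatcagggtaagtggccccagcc
Cald1: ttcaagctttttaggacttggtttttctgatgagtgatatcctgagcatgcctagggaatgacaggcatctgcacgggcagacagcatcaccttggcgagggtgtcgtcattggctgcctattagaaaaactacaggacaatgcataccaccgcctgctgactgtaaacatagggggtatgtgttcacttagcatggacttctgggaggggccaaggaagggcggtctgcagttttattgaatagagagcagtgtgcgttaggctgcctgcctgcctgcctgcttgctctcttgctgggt
None of the 10 promoters held an exact box, against 1.64% of all 33469 promoters. The looser form occurred in 1 of the 10, Acta2, starting 134 and 84 bases before the gene start, and in 8.1% of all promoters. A match is a description of the letters and not a binding site, and the lack of one concerns this window only.

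The 8 sham libraries held 22168110 to 34718633 counts. The 13 protein-coding genes of the mitochondrial genome took 33.65% to 35.67% of the counts in the high set and 36.58% to 42.81% in the low set. Genes with at least 1 count numbered 16051 to 16522 in the high set and 15428 to 15700 in the low set. TMM scaling factors were 1.10 to 1.24 in the high set and 0.902 to 1.01 in the low set. The sets overlapped in none of these 3 measures, and their part in the differences that follow was not tested. Scaling by the library total in place of TMM moved the median log2 difference over all genes from 0.01 to 0.32.

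A gene was counted as higher when all 3 high libraries lay above all 5 low ones and the log2 difference between the set means was at least 1, and as lower in the mirrored case. Of 13458 genes that passed a filter on low counts, 979 (7.27%) were higher and 45 (0.334%) lower. Scaled by the library total, 1550 were higher and 17 lower. Without the size criterion, 2209 genes (16.4%) lay above and 2059 (15.3%) below without overlap, on a scale that TMM centres near a median difference of 0. The coefficient of biological variation was 0.30 over the 8 sham libraries and 0.162 over the 5 low ones. The 3 libraries left out were chosen for standing apart in Adipoq, so a smaller value without them can follow from the choice alone. Among the 979 genes, WT SHAM 2 had the highest level of the 3 libraries for 814, KO SHAM 4 for 126 and WT SHAM 3 for 39. Since the sets were chosen on these libraries, these percentages are the background against which the lists below are described. A gene near 0 in the low set could pass the filter mainly through the high libraries. Such genes add to the counts and medians of the lists that hold them.

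**Figure D2:**
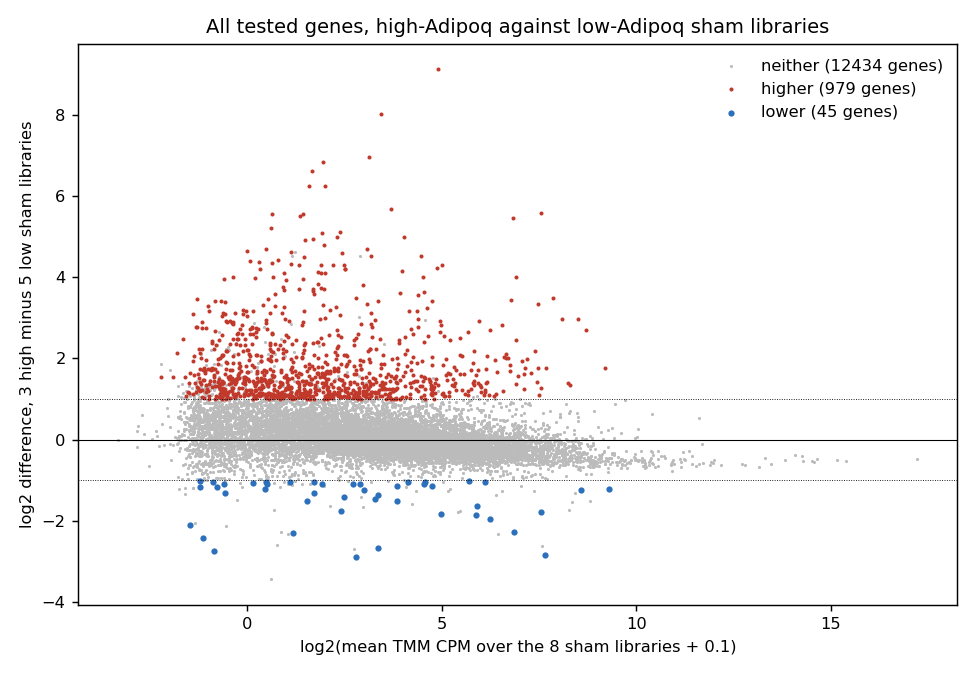
Each point is 1 of the 13458 tested genes, with its mean level over the 8 sham libraries, as log2(TMM CPM + 0.1), on the horizontal axis and the log2 difference of the high minus the low set on the vertical axis. Red marks the 979 genes counted higher and blue the 45 counted lower.

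Fat cell genes had the largest single differences. Of 25 adipocyte markers 21 passed the filter, and 13 of these were higher, with a median log2 difference of 2.74 against 0.01 over all genes. Adipoq, which chose the sets, is one of these markers, and without it 12 of 20 were higher with a median of 2.62. Plin1, Retn and Cidec, described below, reached 10 counts only in the 3 high libraries and KO PAB 3. They passed the filter through these libraries, so the count and the median of the list are partly fixed by the choice of the sets. Car3, a carbonic anhydrase abundant in fat, stood at 141, 66.4 and 30.2 TMM CPM in the high set and at 0 to 0.297 in the low set. Plin1, which coats lipid droplets, stood at 11.2, 10.6 and 2.80 TMM CPM in the high set and had no count in the low set. Against a floor of 3 counts over the 5 low libraries together, Plin1 was at least 338-fold higher. Retn, which encodes the fat hormone resistin, stood at 5.94, 4.15 and 1.40 TMM CPM, had no count in the low set and was at least 160.1-fold higher against the same floor. With such genes set to this bound the median of the list was also 2.74. KO SHAM 4, the high library with the least Adipoq, was also lowest of the high set for Car3, Plin1 and Retn.

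Cidec, a protein that enlarges lipid droplets, stood at 10.4, 14.8 and 4.56 TMM CPM in the high set, and the low set held a single count, in WT SHAM 1. Its pooled ratio was 1212, with a 95% counting interval of 217 to 47930. Plin4, Aqp7 and Gpd1, a droplet protein, a glycerol channel and a glycerol phosphate enzyme, had log2 differences of -0.24, -0.61 and -0.18 and were counted in neither direction. They are the most abundant members, and with them the summed level of the list was 689.7, 954 and 552 TMM CPM in the high set and 489.8 to 581 in the low set, where the sets overlapped. The list was therefore set apart by genes that were near 0 in the low set, and not by its abundant members.

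The fat transcripts differed within the high set. Ucp1, the uncoupling protein by which brown fat makes heat, had 1396 counts in WT SHAM 3, none in WT SHAM 2, 1 in KO SHAM 4 and none in the low set. Pck1, which supplies glycerol for fat storage, stood at 9.57, 83.4 and 8.18 TMM CPM in the high set and at 0.0822 to 0.680 in the low set. Thrsp, a regulator of lipid synthesis, stood at 11.4, 52.3 and 4.53 TMM CPM against 0 to 0.382. WT SHAM 3 was thus highest for all 3 genes, although WT SHAM 2 had the most Adipoq. Other brown fat markers did not separate WT SHAM 3 as Ucp1 did. Cidea, a droplet protein, stood at 13.9, 21.6 and 14.4 TMM CPM against 17.2 to 23.1, and Prdm16, a transcription factor of the brown lineage, at 18.0, 13.9 and 16.0 against 10.8 to 15.7. Dio2, which activates thyroid hormone, was highest in WT SHAM 3 at a low level, 0.0878, 0.358 and 0.110 TMM CPM in the high set against 0.0620 to 0.307 in the low set. Elovl3, a fatty acid elongase, was listed at 0 in every sham library. Of 13 tested genes of fatty acid synthesis 1 was higher, near the 7.27% of all tested genes. It was the desaturase Fads2, with a log2 difference of 1.12.

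Mesothelial genes had the largest median of all lists with 5 or more tested members. Of 21 markers 18 passed the filter, 14 were higher and the median log2 difference was 3.5. Upk3b, a membrane plaque protein, stood at 11.9, 4.58 and 11.9 TMM CPM in the high set and at 0.876, 0, 0.186, 0.0768 and 1.15 in the low set. Upk1b, its relative, stood at 11.3, 5.23 and 11.1 against 0.123 to 1.49, and Muc16, a surface mucin, at 16.5, 6.34 and 14.5 against 0 to 3.99. For these 3 genes WT SHAM 2 and KO SHAM 4 were close to each other and WT SHAM 3 was lowest of the high set. The epithelial keratins Krt8 and Krt18 had log2 differences of 4.32 and 3.97. Summed over the list, the high set stood at 286, 126 and 229.6 TMM CPM and the low set at 37.2 to 83.5, without overlap.

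The 4 tested mesothelial markers that were not counted, named after their values were seen, were Wt1, Gpm6a, Tbx18 and Slpi. Wt1 and Tbx18 are transcription factors of the epicardium, Gpm6a is a membrane glycoprotein and Slpi a protease inhibitor. Wt1 stood at 8.22, 13.0 and 10.9 TMM CPM in the high set and at 7.28 to 16.9 in the low set, with a log2 difference of -0.08. Tbx18 had a log2 difference of 1.05, Gpm6a of 0.80 and Slpi of -0.44. The surface and keratin genes of mesothelium were thus higher while Wt1 overlapped between the sets.

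Contractile smooth muscle genes were higher by a similar margin at much greater abundance. Of 20 markers 18 passed the filter, 14 were higher and the median log2 difference was 2.83. Acta2 stood at 978, 269 and 388 TMM CPM in the high set and at 22.3, 68.7, 35.5, 43.2 and 52.1 in the low set. Tagln, an actin-binding protein also called SM22, stood at 661, 229 and 329 TMM CPM against 15.6, 61.7, 29.5, 35.7 and 61.1. WT SHAM 4, the low library with the most of both genes, had the least Msln of the low set. Itga8, an integrin chain of smooth muscle and mesenchyme, differed most, at 545, 140.3 and 198 TMM CPM against 3.55 to 7.81, a log2 difference of 5.44. Cnn1 (calponin), Npnt (a matrix ligand of that integrin) and Lmod1 (an actin nucleator) had log2 differences of 4.23, 4.21 and 3.41.

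The summed smooth muscle level was 5074, 1749 and 2537 TMM CPM in the high set and 477 to 766 in the low set. The 4 tested members not counted, named after their values were seen, were Smtn, Synpo2, Pcp4l1 and Myocd. Their log2 differences were 0.30, 0.27, 0.04 and 0.10. Smtn and Synpo2 bind actin, and Myocd encodes myocardin, the coactivator of serum response factor, which heart muscle also expresses. Myocd stood at 32.2 to 39.7 TMM CPM in the high set and 25.6 to 37.6 in the low set.

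Pericytes, the mural cells of capillaries, and vascular endothelium had list medians near that of all genes. Of all tested genes 7.27% were counted higher, and counts over lists this short say little against that share. Of 11 tested pericyte markers 2 were higher, the growth factor receptor Pdgfrb and the proteoglycan Cspg4, both of which arterial mural cells also express, with log2 differences of 1.34 and 1.34. The pericyte genes Rgs5, Higd1b and Vtn had log2 differences of -0.09, -0.48 and -0.31, while Mcam, an adhesion molecule, and Notch3, a receptor of mural cells, had 0.92 and 0.70 with overlap between the sets. The median of the list was -0.09. None of 10 tested vascular endothelial markers was counted in either direction, with a median of -0.09. Cdh5, the cadherin that joins endothelial cells, stood at 96.7, 83.6 and 96.5 TMM CPM in the high set and at 88.4 to 139 in the low set. Vwf, a clotting factor of larger vessels, stood at 235, 149 and 264 against 99.0 to 149. Cldn5, a tight junction protein, stood at 8.90, 36.1 and 37.0 against 34.2 to 43.4, so that WT SHAM 2 alone was low.

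**Figure D3:**
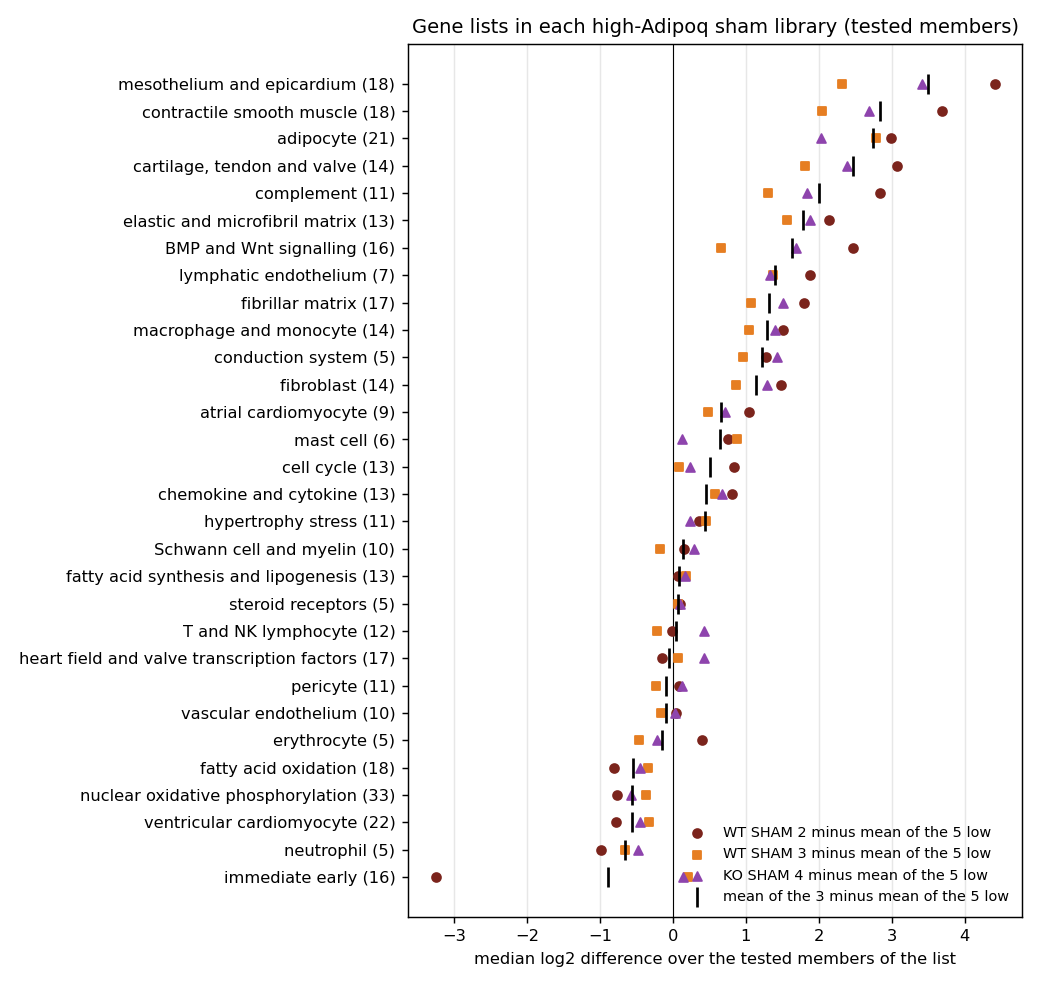
Median log2 difference from the mean of the 5 low sham libraries over the tested members of each list, for WT SHAM 2 (circles), WT SHAM 3 (squares) and KO SHAM 4 (triangles); black bars are the median over members of the difference between the set means, and the number of tested members stands in brackets. The black bar of the mesothelial list lies at 3.5 and that of the heart muscle list at -0.55, and for immediate early genes WT SHAM 2 stands apart from the other high libraries.

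All 13 elastic fibre and microfibril genes were tested and all 13 were higher, with a median log2 difference of 1.78. Elastin (Eln) stood at 477, 108 and 185 TMM CPM in the high set and at 17.8, 26.7, 10.1, 24.6 and 23.4 in the low set. Ltbp2, a microfibril protein, stood at 103, 26.6 and 35.0 TMM CPM against 1.20 to 2.59. Fbn1, which encodes fibrillin, stood at 279.6, 141 and 169 against 41.6 to 59.5. For these 3 genes WT SHAM 2 was highest and WT SHAM 3 lowest of the high set. Fbln5, which assembles elastin, and Lox, which cross-links it, had log2 differences of 2.65 and 2.41. Mfap4 stood at 18.0, 7.66 and 10.4 TMM CPM against 0, 0, 6.70, 7.56 and 3.95, and the 2 zeros, in estimated counts, make its log2 difference of 3.49 uncertain. Summed over the list, the high set stood at 1696, 755 and 1068 TMM CPM and the low set at 247 to 332.

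Of 17 tested fibrillar matrix genes 11 were higher and 16 lay above without overlap, against 16.4% of all tested genes, with a median of 1.32. Bgn, the proteoglycan biglycan, stood at 1399, 415 and 604 TMM CPM in the high set and at 83.1, 93.3, 70.2, 94.6 and 115 in the low set. Postn (periostin), Fn1 (fibronectin) and the collagen gene Col1a1 had log2 differences of 2.72, 2.01 and 1.93. Sparc, a collagen-binding protein, had one of 0.71 and was not counted. The fibrillar genes thus moved with the elastic ones, by smaller margins.

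Of 24 cartilage, tendon and valve genes 14 passed the filter and 11 were higher, with a median of 2.47. Epyc, a small proteoglycan of cartilage, stood at 10.2, 4.26 and 5.74 TMM CPM against 0 to 0.192. Comp, a matrix protein of cartilage and tendon, stood at 5.68, 2.58 and 4.06 against 0.0384 to 0.288. Fmod, fibromodulin, stood at 83.1, 33.2 and 48.4 against 2.23 to 6.25. WT SHAM 2 was highest and WT SHAM 3 lowest of the high set for each of the 3. Chad and Hapln1, 2 more cartilage matrix genes, had log2 differences of 4.39 and 2.97. The summed list stood at 676, 306 and 432 TMM CPM in the high set and 78.4 to 103 in the low set.

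Fibroblast markers differed less. Of 14 tested 7 were higher and 12 lay above without overlap (16.4% of all tested genes), with a median of 1.14. Pi16, a marker of fibroblasts around vessels, stood at 78.3, 50.1 and 65.6 TMM CPM in the high set and at 12.9 to 21.1 in the low set. Meox1, a homeobox factor, and Clec3b, a secreted lectin, had log2 differences of 2.73 and 2.08. Dcn (decorin) and Gsn (gelsolin), the most abundant members, had differences of 0.88 and 0.64 and were not counted. Col15a1 ranged from 1.64 to 26.6 TMM CPM within the low set and overlapped the 24.8 of WT SHAM 3.

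Secreted regulators of mesenchyme were among the leading genes. Of 16 tested BMP and Wnt pathway genes 9 were higher, with a median of 1.63. The Wnt antagonist Frzb stood at 142, 40.7 and 55.9 TMM CPM in the high set and at 2.58 to 4.61 in the low set, and its relatives Sfrp2 and Sfrp4 had log2 differences of 4.52 and 4.19. Bmp3, a family member outside the list that opposes the others, stood at 18.4, 3.40 and 7.05 against 0.0922 to 0.255. The related ligand Gdf10, also outside the list, held 380 counts in the high set and 2 in the low set, a pooled ratio of 247 with a 95% counting interval of 67.8 to 2044. Wnt5a, a ligand, overlapped between the sets at 15.0 to 17.5 and 13.4 to 15.8 TMM CPM.

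Beside Bmp3 and Gdf10, 3 genes outside the lists were among the 15 with the largest differences. Nov, a matrix-associated protein of the CCN family, stood at 832, 249.6 and 382 TMM CPM in the high set and at 7.37 to 11.0 in the low set. Coch, which encodes the matrix protein cochlin, stood at 23.5, 4.33 and 11.3 against 0.0461 to 0.883. Lrrtm3, a synaptic adhesion gene, stood at 12.4, 2.18 and 4.64 against 0 to 0.127. For all 3 genes the order within the high set was that of Myh11. The summed elastic, fibrillar, cartilage and complement levels had the same order, so it is not particular to Myh11.

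Complement genes were higher as a group: 9 of 11 tested were counted, all 11 lay above without overlap (16.4% of all tested genes), and the median was 2.00. C7, a component of the membrane attack complex, stood at 664, 361 and 444 TMM CPM in the high set and at 107 to 305 in the low set. C4a stood at 398, 146 and 306 against 5.84 to 42.9, but C4a and C4b are near-identical copies between which reads can be split, so their separate values are uncertain. Cfb, of the alternative pathway, and C6, of the attack complex, had log2 differences of 2.46 and 3.17. The summed list was 2279, 1109 and 1598 TMM CPM in the high set and 364 to 677 in the low set.

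Lymphatic vessel and macrophage genes followed the same libraries. Of 7 tested lymphatic markers 5 were higher, with a median of 1.40. The chemokine Ccl21 stood at 88.9, 61.1 and 47.0 TMM CPM against 16.3 to 36.7, and Mmrn1, a granule protein of lymphatic endothelium, at 63.6, 37.4 and 26.6 against 7.14 to 12.1. Prox1, a lymphatic transcription factor that heart muscle also expresses, had a log2 difference of 0.17. Of 14 tested macrophage and monocyte markers 12 were higher, with a median of 1.29. Csf1r, the macrophage growth factor receptor, stood at 54.4, 35.4 and 48.4 TMM CPM against 14.7 to 21.5, and Cd163, a scavenger receptor, at 21.8, 18.0 and 22.8 against 5.53 to 10.6.

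Markers of other blood cells overlapped more. Over lists this short, counts of 0 or 1 cannot be told apart from the 7.27% of all tested genes counted higher. Of 12 tested T and NK cell genes, Cd4, which rat macrophages also express, was higher and the granzyme Gzmk was lower, with log2 differences of 1.28 and -1.20 and a list median of 0.04. None of 5 tested neutrophil genes and none of 3 tested B cell genes was counted. Of 6 tested mast cell genes 1 was higher, the receptor chain Ms4a2, at 0.384 to 0.430 TMM CPM against 0.0822 to 0.230. The haemoglobin genes Hba-a1 and Hbb overlapped between the sets, and the red cell anion exchanger Slc4a1 was lower, at 13.9, 11.4 and 15.6 TMM CPM against 25 to 36.7. Of 10 tested Schwann cell genes 1 was higher, S100b, which fat and cartilage cells also express, at 12.7, 5.73 and 4.45 TMM CPM against 0.403 to 0.599. Of 7 lung epithelial genes none passed the filter and 5 were listed at 0 in every sham library.

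A few genes of the atrium and the conduction system separated the sets at low levels. Of 9 tested atrial genes 3 were higher (7.27% of all tested genes). Myl7, the atrial myosin light chain, stood at 9.54, 6.23 and 7.66 TMM CPM in the high set and at 0.138, 0.0822, 0.682, 0 and 0.510 in the low set. Myl4, another atrial light chain, had a log2 difference of 1.02. Of 5 tested conduction genes 3 were higher: the adhesion gene Cntn2, at 33.4, 8.17 and 8.76 TMM CPM against 1.61 to 2.15, and Cpne5 and the calcium channel gene Cacna1g, with log2 differences of 2.39 and 1.22. The pacemaker channel Hcn4 overlapped, at 22.2 to 29.9 TMM CPM in the high and 15.6 to 55.4 in the low set. Isl1, a factor of the outflow tract and the sinus node, was not among the 3 genes counted higher. It had 57 counts in the high set and none in the low set, at least 24.7-fold more against the floor of 3 counts.

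Transcription factors of the heart fields and valves were mostly alike. Of 17 tested, 3 mesenchymal factors were higher (7.27% of all tested genes), Msx1, Prrx1 and Foxc2, with log2 differences of 1.18, 1.98 and 2.36. Gata4, Mef2c and Tbx20, factors of heart muscle, had differences of -0.11, -0.15 and 0.38. The 22 Hox genes, which pattern the body axis, all missed the filter. Their summed level was 5.12, 1.40 and 2.20 TMM CPM in the high set and 0.310 to 0.946 in the low set, so WT SHAM 2 had the most, and the sets did not overlap.

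Of 5 tested steroid receptors 1 was higher (7.27% of all tested genes), with a median log2 difference of 0.08. Pgr, the progesterone receptor, missed the filter. It stood at 3.19, 0.645 and 0.878 TMM CPM in the high set and had no count in the low set, so it was at least 68.8-fold higher against the floor. Pgr was thus detected in the ERalpha -/- library KO SHAM 4. Esr1 followed genotype, at 5.53, 4.07, 3.90 and 3.74 TMM CPM in WT SHAM 1 to 4 and 0.589, 0.576, 0.425 and 0.576 in KO SHAM 1 to 4.

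Heart muscle genes were lower by a small and nearly even amount. None of 22 tested ventricular cardiomyocyte genes reached a log2 difference of -1, yet 19 lay below without overlap, against 15.3% of all tested genes, and the median was -0.55. Tnni3, cardiac troponin I, stood at 1834, 2467 and 2289.7 TMM CPM in the high set and at 3343, 3746, 3658, 3192 and 3218 in the low set. Mb, myoglobin, had the largest difference of the list, -0.68. Of 33 tested nuclear genes of oxidative phosphorylation 31 lay below without overlap, and of 18 genes of fatty acid oxidation 16 did, again against 15.3% of all tested genes, with medians of -0.55 and -0.55. Atp5b, a subunit of ATP synthase, stood at 4559, 5915 and 5386 TMM CPM against 8019, 8237, 8068, 8499.6 and 7818, and Acadm, an enzyme of fatty acid oxidation, had a log2 difference of -0.67. In each of the 3 lists WT SHAM 2 had the lowest and WT SHAM 3 the highest summed level of the high set. Scaled by the library total, the 3 medians were -0.24 each, against 0.32 for all genes. In bulk RNA, fewer cells of a type and less RNA per cell cannot be told apart.

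**Figure D4:**
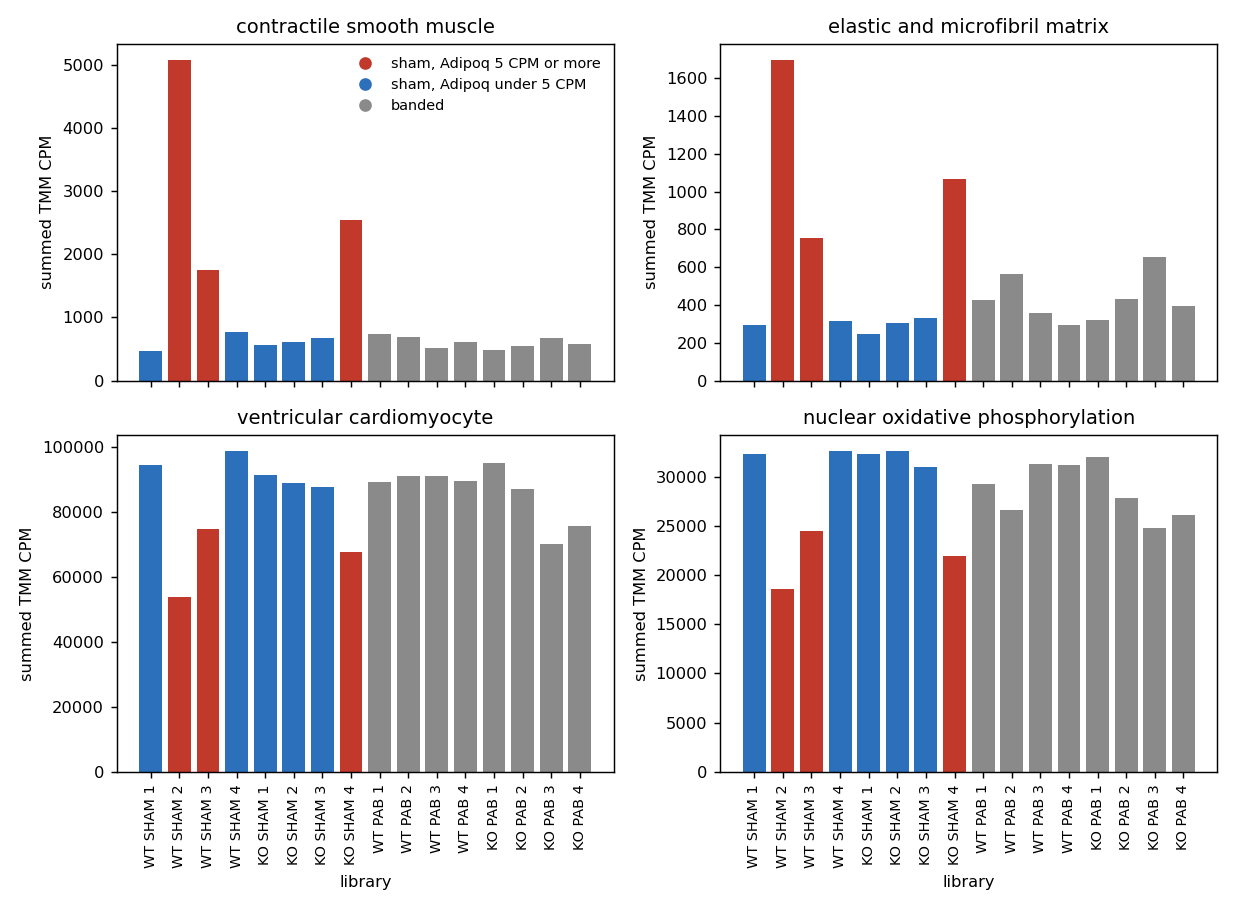
Summed TMM CPM of 4 gene lists in each of the 16 libraries, as bars from 0; red marks the high set, blue the low set and grey the banded libraries. The cardiomyocyte sums of the high set, 53965 to 74723, lie below those of the low set, 87789 to 98862, and its smooth muscle sums lie above.

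A small group of genes was lower by more than the heart muscle lists. Sphkap, an anchor protein for protein kinase A, stood at 27.9, 35.3 and 36.1 TMM CPM in the high set and at 100.4 to 221 in the low set. Gpr22, an orphan receptor of heart muscle, stood at 28.5, 20.8 and 30.5 against 82.8 to 138, and Casq1, a calcium store protein, at 16.1, 27.0 and 23.7 against 56.4 to 107. Eya1, a developmental cofactor, stood at 0.556, 0.860 and 0.384 against 2.91 to 3.48. In these 4 genes the gap between the sets exceeded the range within the high set. Nppb, the natriuretic peptide that stretched muscle releases, stood at 9.78, 10.9 and 10.3 TMM CPM in the high set and at 28.1, 92.4, 17.1, 55.6 and 26.9 in the low set. The high libraries were alike for Nppb and the low ones spread widely.

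Abra, an actin-binding protein of muscle, stood at 8.63, 141 and 44.4 TMM CPM against 193 to 456, with WT SHAM 2 far below WT SHAM 3. Xirp1, a protein of the intercalated disc, stood at 167, 247 and 192 against 303 to 702, and Epha3, a guidance receptor, at 7.46, 7.59 and 4.67 against 14.0 to 27.1. Sccpdh had the largest difference of the lower genes, -2.88, but it was listed at 0 in KO SHAM 4 alone, with 4.21 and 5.16 TMM CPM in the other high libraries and 5.92 to 13.2 in the low set. Its symbol has 2 entries, and the entry given here had the same count, 144, in WT SHAM 2, WT SHAM 3 and WT SHAM 4. The levels of Sccpdh are therefore uncertain. The other 6 of the 15 leading lower genes, Rd3l, Slc25a22, Atp6ap1l, Hpd, Inha and Efcab6, had log2 differences from -1.62 to -1.30. Of 11 tested genes of hypertrophic stress 1 was lower and 1 higher, against 0.334% and 7.27% of all tested genes. Nppb was the lower one, and the higher one, the growth factor Tgfb2, stood at 22.3, 20.2 and 18.7 TMM CPM against 6.54 to 10.5. Nppa and Myh7, a natriuretic peptide and the slow myosin, overlapped between the sets.

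Immediate early genes, which respond to stimuli within minutes, differed in 1 library of the high set. None of 16 tested was counted. Their median log2 difference from the low set was -3.25 in WT SHAM 2, 0.20 in WT SHAM 3 and 0.14 in KO SHAM 4. The transcription factor Fos stood at 9.48, 175 and 143 TMM CPM in the high set and at 159.7, 214, 95.6, 101 and 143 in the low set. Nr4a1, an orphan receptor, stood at 11.4, 371 and 401 against 199 to 458, and Atf3, a stress-induced factor, at 5.56, 159 and 61.7 against 81.8 to 378. WT SHAM 2 was thus below every other sham library for these genes. It also had the least of the cytokine genes Cxcl1 and Il6, at 0.263 TMM CPM and no count. The median of the list over the high set, -0.89, became 0.20 without WT SHAM 2.

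Genes carried by 1 library were listed by a rule added after values were seen, which asked for at least 1 CPM and more than 4 times the level of every other sham library, with 0.2 CPM added to both. It named 8 genes in WT SHAM 2, 4 in WT SHAM 3 and 2 in KO SHAM 4. Those of WT SHAM 3 were Ucp1, Pck1, Thrsp and Irf4, a transcription factor of fat and lymphoid cells, which stood at 11.5 TMM CPM against at most 1.08 in the other sham libraries. Those of WT SHAM 2 included Osr1, a factor of early mesenchyme, at 15.1 TMM CPM against at most 2.83, and Dmp1, a bone matrix protein, at 4.89 against at most 1.04. The 2 genes of KO SHAM 4 had placeholder names.

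The banded libraries took no part in forming the sets, and they differed in how many of the 979 genes they held at raised levels. The 5 low sham libraries, however, both helped to choose the 979 genes and set the level to be passed here. The share among the 979 genes can therefore exceed that of all genes by the choice alone. In KO PAB 3, 74.5% of the 979 genes lay above all 5 low sham libraries, against 26.3% of all tested genes, and in WT PAB 2 64.5% did, against 24.2%. The share was 43.9% in KO PAB 4 (24.1% of all tested genes), 38.4% in KO PAB 2 (22.2%) and 35.9% in WT PAB 1 (24.1%). It was near that of all genes in WT PAB 4 (20.7% and 16.4%) and WT PAB 3 (20.0% and 15.9%), and below it in KO PAB 1 (20.4% and 22.6%). KO PAB 3 also had the most Car3 of the banded libraries, 12.6 TMM CPM, and their largest elastic and cartilage sums, 652 and 215 TMM CPM. Its Msln of 0.770 and Myh11 of 57.3 TMM CPM, however, lay within the ranges of the low sham set. Its macrophage and neutrophil sums, 422 and 65.7 TMM CPM, were the highest of all 16 libraries. Banding separates these libraries from the sham ones, and its part in these shares was not tested.

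**Figure D5:**
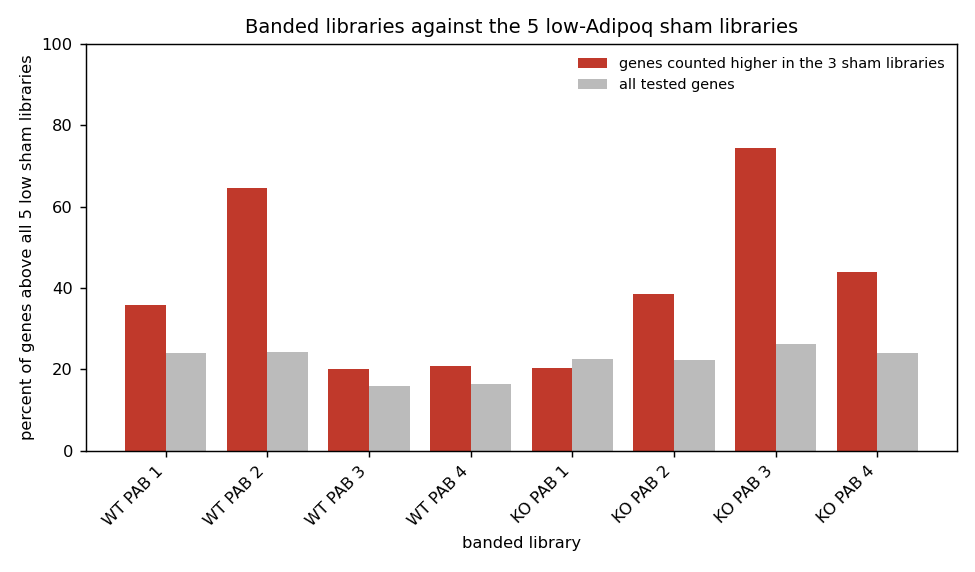
For each banded library, the percent of the 979 genes counted higher (red) and of all 13458 tested genes (grey) that lay above all 5 low sham libraries. KO PAB 3 and WT PAB 2 have the tallest red bars, at 74.5% and 64.5%. The 5 low sham libraries also helped to choose the 979 genes.

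Whether the 3 markers vary together was tested in the 8 banded libraries, over 3 relations on log2(TMM CPM + 1), with exact two-sided permutation tests and Benjamini-Hochberg adjustment. Adipoq and Msln had Pearson's r of 0.18 (exact permutation p = 0.379, adjusted p = 0.504) and Spearman's rho of 0.359 (exact permutation p = 0.379, adjusted p = 0.379). Adipoq and Myh11 had r of 0.375 (exact permutation p = 0.504, adjusted p = 0.504) and rho of 0.647 (exact permutation p = 0.0918, adjusted p = 0.138). Msln and Myh11 had r of 0.696 (exact permutation p = 0.0629, adjusted p = 0.189) and rho of 0.69 (exact permutation p = 0.0694, adjusted p = 0.138). None passed the threshold of 0.05. Without the 2 libraries farthest from the median of the first gene, r was 0.359, 0.799 and 0.538 over 6 libraries, with exact permutation p of 0.606, 0.244 and 0.289. Without KO PAB 3 alone, which had the most Adipoq, r was 0.838 for Adipoq and Msln and 0.717 for Adipoq and Myh11, with exact permutation p of 0.0865 and 0.11.

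The high set entered the comparison of genotypes in sham unevenly, with 2 libraries in WT SHAM and 1 in KO SHAM. KO SHAM was compared with WT SHAM by edgeR's quasi-likelihood test over all 16 libraries with Benjamini-Hochberg adjustment. Of 13458 genes 1 was called (0.00743%), Esr1, the targeted gene, with a log2 fold change of -2.97 (SE 0.24, edgeR adjusted p = 3.74e-05). Before adjustment, 273 of the 13458 genes had an unadjusted p under 0.05, less than the share of 0.05 expected if no gene differed. The 979 genes had a median genotype log2 fold change of -0.48, a direction that their choice fixes, since they were taken as high in 2 of 4 WT SHAM and 1 of 4 KO SHAM libraries. None of them was called. Myh11 had a fold change of -1.02 (SE 0.86) and Adipoq one of -2.69 (SE 1.83), both with an edgeR adjusted p of 0.996.

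Without the 3 high libraries edgeR again called Esr1 alone, of 13583 genes (0.00736%), with a log2 fold change of -3.10 (SE 0.32, edgeR adjusted p = 0.00317). Over all alternatives the adjusted p of Esr1 ranged from 2.4e-21 with DESeq2 to 0.00371 with the sham libraries only. Genes at an unadjusted p under 0.05 numbered 591 of 13583 without the 3 libraries and 275 of 13458 with the set as a covariate. They numbered 570 of 13625 without WT SHAM 1 and 443 of 13643 without WT SHAM 4. Without KO SHAM 4, the fit in which both remaining high libraries were WT SHAM, they numbered 1548 of 13539. Only this last count exceeded the share of 0.05 expected if no gene differed. Esr1 was the single call in each of these fits.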

How the data were processed

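Right ventricular RNA of 16 libraries in 4 groups was measured by stranded mRNA sequencing, per the labels' protocols. The values are expected counts per gene as deposited by the authors, and the submitters' processing notes name STAR 2.5.3a, RSEM 1.3.0 and the build Rnor_6.0, without their roles. Whether counting used strand is not given in the sources used here. Expected counts are estimates, so an exact 0 can be a failed estimate.

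The deposited values were whole numbers, and no rounding was applied. Genes were kept by edgeR's filterByExpr (minimum count 10) and scaled by TMM, and log2 differences used a prior count of 2. Genotype was tested with edgeR 4.0.16 in R 4.3.3 (quasi-likelihood, adjusted p under 0.05), with limma 3.58.1 and DESeq2 1.42.0 as alternatives beside other scalings, filters, a replicate block and single libraries left out. The statistics were tested on simulated data. The libraries and gene lists were chosen with earlier results of these data known. Named genes were the 3 markers, the 15 largest differences each way among named genes with a mean of at least 1 CPM, up to 6 of largest difference and 3 of highest mean per list, and genes called by genotype. Several symbols occur in more than 1 entry, and the symbols Ttn and Pecam1 among the markers were not analysed here. Values of some genes that this rule names are not reported here.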

Additional observations from a re-analysis of the deposited data

Results flagged for a closer look

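In 64 groups of 4 libraries (16 measures in 4 groups), a library stood apart 18 times, with a gap to the nearest library, as a share of the range of its group, above Dixon's 95% critical value. Chance flags about 1 group in 20 for a single measure picked in advance. The measures here were Adipoq, Msln, Myh11 and the summed levels of selected lists described above. Many of them vary over the same libraries, so the 18 flags are not independent and cannot be set against that rate. Adipoq chose KO SHAM 4, so the flags of that library are not independent of the choice.

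In KO SHAM, KO SHAM 4 stood apart from the other 3 libraries for Adipoq (gap share 0.996), Msln (0.83) and Myh11 (0.949). It also stood apart, on the high side, for the summed levels of contractile smooth muscle (0.942), elastic matrix (0.897), fibrillar matrix (0.871), cartilage and valve genes (0.961), lymphatic endothelium (0.854) and complement (0.843). On the low side it stood apart for the summed ventricular cardiomyocyte (0.84) and oxidative phosphorylation (0.844) levels.

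In KO PAB, KO PAB 3 stood apart on the high side for Adipoq (0.993), Myh11 (0.874) and the summed lymphatic (0.868), macrophage (0.878) and complement (0.922) levels.

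The summed level of brown and beige fat genes set WT SHAM 3 apart at 85.9 TMM CPM (0.95), where the other WT SHAM libraries stood at 30.7 to 33.5. Ucp1 alone made up most of the sum of WT SHAM 3 and had no count in the other WT SHAM libraries. Ucp1 missed the filter on low counts, and none of the tested members of the list was counted higher. The summed level also set KO SHAM 2 apart at 39.1 TMM CPM (0.889), against 30.5 to 31.5 in the other KO SHAM libraries.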

How the results depend on the processing

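The count of 979 higher genes became 1550 with scaling by the library total and 279 at a log2 difference of 2, and ranged from 830 to 1372 with single sham libraries left out. All 979 were among the 1550, which the scaling fixes in advance. Every TMM factor of the high set exceeded every factor of the low set, so the library total raises the high set relative to the low set. The count of 45 lower genes became 17 with scaling by the library total, 21 with the total without mitochondrially encoded genes, 140 with the WT SHAM libraries only, 8 at a log2 difference of 2 and 97 with overlap allowed, and ranged from 37 to 106 with single libraries left out, the 106 without WT SHAM 3. The cause was not tested. The immediate early median of -0.89 ranged from -1.5 to 0.20 with single libraries left out, and was 0.20, the reversed direction, without WT SHAM 2. Of 450 list medians under alternatives, over 30 lists, 386 moved by less than a yardstick, 63 by more and 1 reversed. The yardstick was the standard deviation of the list's median between the 3 high libraries, so it differed by list. It was wide for immediate early genes, where WT SHAM 2 stood apart. For steroid receptors, with medians of 0.10, 0.07 and 0.10 in the high set, it was narrow, and 13 alternatives exceeded it while 2 did not. The relation of Msln and Myh11 (r of 0.696) passed the unadjusted threshold with scaling by the library total (r of 0.726, exact permutation p = 0.0414), and its r ranged from 0.623 to 0.801 with single banded libraries left out, with an exact permutation p of 0.0409 without WT PAB 1 and 0.0405 without KO PAB 4. Deviations from the group means over all tested genes were compared between same-numbered sham libraries. Their correlations were 0.562, -0.332, -0.294 and -0.621, and 1 of the 4 WT SHAM libraries correlated best with its own number. The difference between the high and the low set enters these deviations. The comparison therefore cannot show or exclude a pairing by replicate number. With the replicate block the genotype test called 1 gene, Esr1 (log2 fold change -2.98, edgeR adjusted p = 0.000976), and 286 genes had an unadjusted p under 0.05. With 3 high libraries, 1 library can decide a gene, and levels under about 0.1 TMM CPM rest on single counts.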

Other observations

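Genes of other organs were described in the same sets, against 7.27% of all tested genes counted higher. Of 4 tested liver genes 2 were higher in the high set, the protease inhibitor Serpina1, at 9.45, 1.76 and 3.49 TMM CPM against 0, 0, 0.0930, 0 and 1.70, and transferrin (Tf), at 87.5, 67.6 and 72.4 against 36.5, 31.4, 36.1, 31.2 and 42.0. Albumin (Alb) followed neither set: KO SHAM 3 had 10.3 TMM CPM, WT SHAM 3 had 5.05, and no other sham library exceeded the 0.644 of WT SHAM 2. Of 2 tested skeletal muscle genes the fast myosin Myh4 was higher, at 0.673, 1.22 and 0.714 TMM CPM against 0.0922 to 0.307. Of 3 tested neuronal genes the intermediate filament gene Prph was higher, at 1.76, 1.29 and 2.36 against 0.341 to 1.06.

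Of 13 tested chemokine and cytokine genes 4 were higher (7.27% of all tested genes): Ccl19 and Cxcl14, which attract leukocytes, Cxcl16, and the macrophage growth factor Csf1. Csf1 stood at 55.3, 23.8 and 31.4 TMM CPM in the high set and at 12.8 to 14.8 in the low set, and Ccl19 at 2.31, 2.18 and 2.11 against 0.384 to 0.899. None of 13 tested cell cycle genes was counted, although Mki67, a proliferation marker, stood at 5.71 TMM CPM in WT SHAM 2 and at 2.15 and 2.58 in the other high libraries, against 1.57 to 2.25 in the low set.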
